A study of Homo sapiens with 15 samples.

Results

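The genes described here were 10 AP-1 and immediate early factors, namely FOS, FOSB, FOSL1, FOSL2, JUN, JUNB, JUND, ATF3, EGR1 and MAFF. They were chosen by gene name among the 61544 genes of the count table, with earlier results of these data known. RNA-seq was performed on HCC95, an established cell line from a human lung squamous cell carcinoma (LUSC). The cells were transfected with small interfering RNAs (siRNAs), short double-stranded RNAs that lead to cleavage of a matching mRNA. The groups were siTP63b, siSOX2b, siKLF5b and siGRHL2a, each named for the transcription factor it targets, and siNC1, a negative control siRNA. Each group had 3 libraries of poly(A) RNA, all from HCC95, and each targeted factor was represented by a single siRNA sequence.

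AP-1 is a dimer of basic leucine zipper (bZIP) proteins in which a JUN protein pairs with another JUN, a FOS or an ATF protein and binds DNA. FOS, FOSB, JUN, JUNB, ATF3 and EGR1 are immediate early genes, which are transcribed within minutes of a growth factor or stress signal through MAP kinases and factors such as SRF, while FOSL1 and FOSL2 are induced later and FOSL1 is itself a known AP-1 target. In squamous epithelium AP-1 is known for its part in proliferation, differentiation and wound repair. MAFF is a small MAF protein, a bZIP protein without a transactivation domain, and EGR1 is a zinc finger factor.

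The sequences before the start sites of JUN, EGR1 and JUND are shown because these promoters differ in the elements through which such genes are known to be regulated. They are RefSeq promoters of build GRCh38.p14, given on the strand of the gene, with the found motifs in capitals. The motifs searched on both strands were the AP-1 site (TGAGTCA or TGACTCA), the cyclic AMP response element (CRE, TGACGTCA), the variant AP-1 site TGACATCA, the GC box (GGGCGG) and the CArG box bound by SRF.
JUN, 249 bases of chr1:58784049-58784297, minus strand: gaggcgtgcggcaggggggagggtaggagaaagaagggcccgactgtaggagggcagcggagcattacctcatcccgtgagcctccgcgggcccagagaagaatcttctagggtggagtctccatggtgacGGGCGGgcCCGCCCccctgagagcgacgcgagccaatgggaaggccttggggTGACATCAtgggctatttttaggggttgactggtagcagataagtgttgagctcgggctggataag
EGR1, 250 bases of chr5:138465229-138465478, plus strand: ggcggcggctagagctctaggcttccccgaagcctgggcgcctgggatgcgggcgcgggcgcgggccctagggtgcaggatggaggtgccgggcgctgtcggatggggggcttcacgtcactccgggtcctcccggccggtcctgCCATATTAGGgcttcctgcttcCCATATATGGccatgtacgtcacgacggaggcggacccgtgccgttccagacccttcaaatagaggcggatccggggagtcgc
JUND, 250 bases of chr19:18281623-18281872, minus strand: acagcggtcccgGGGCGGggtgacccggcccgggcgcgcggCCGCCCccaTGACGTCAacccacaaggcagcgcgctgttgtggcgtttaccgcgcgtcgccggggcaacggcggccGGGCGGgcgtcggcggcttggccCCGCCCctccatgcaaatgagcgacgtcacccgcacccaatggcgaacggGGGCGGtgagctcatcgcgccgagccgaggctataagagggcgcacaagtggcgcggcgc
The JUN window overlaps an exon of ENSG00000290013 in Gencode 44, and the EGR1 and JUND windows hold no annotated exon. JUN held 1 variant AP-1 site, starting 67 bases before its start site, and 2 GC boxes. EGR1 held 2 CArG boxes, starting 105 and 83 bases before its start site, and JUND held 1 CRE and 5 GC boxes. Promoter entries were found for 9 of the 10 members, in 11 windows of 250 bases. The MAFF windows lie wholly within exons of MAFF in Gencode 44, and the ATF3 window at chr1:212614768-212615017 lies inside the ATF3 gene. The FOSL2 window lies inside the FOSL2 gene and holds 35 bases of its exons, and the other ATF3 window holds 73 bases of ATF3 exons. The AP-1 site was in 0 of these 11 windows and in 4.2% of all 35116 promoter windows. The variant AP-1 site was in 2 of the 11 (JUN and ATF3) and in 2.37% of all windows, and the CRE was in 2 (JUND and MAFF) and in 1.65%. A CArG box was in 1 window, that of EGR1, and in 1.16% of all windows. Sites more than 250 bases before a start were not searched, so a member without a box here may hold one farther away. GC boxes were in 8 of the 11 and in 42.6% of all windows. The half-site TGACG, which lies within every CRE, was in 8 of the 11 and in 21.2% of all windows. A match of letters is given here as a description and does not show binding.

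Library totals were 15655495 to 24845273 counts for siNC1 and siKLF5b and 22255856 to 34229063 counts for the other 3 groups. The column names of the table divide the libraries into the same 2 sets. In the first set 49.7% to 50.7% of the counts of genes with 20 to 500 counts were even, and in the second 66.1% to 69.0% were. Whether reads or read pairs were counted is not given in the sources used here, so a count may not stand for the same thing in both sets, and its part in the results was not tested beyond a fit with the counts of the second set halved. Between the sets, the set and the knockdown cannot be told apart, so members were compared within a set. All 14 squamous and epithelial markers reached at least 1 CPM in every library. The targeted genes were each lower in their own knockdown: KLF5 was at 72.5 ± 1.13 CPM (SD, n = 3) in siKLF5b and 113 ± 8.67 CPM in siNC1. In the second set, TP63 was at 363 ± 22.3 CPM in siTP63b, SOX2 at 8.97 ± 1.63 CPM in siSOX2b and GRHL2 at 91.3 ± 0.56 CPM in siGRHL2a, against 690 to 831, 20.2 to 29.5 and 100 to 117 CPM in the other groups of that set. KLF5 was 1.56 times lower in siKLF5b than in siNC1. The difference in GRHL2 was small, as it was 1.1 times higher in siSOX2b and 1.28 times higher in siTP63b than in siGRHL2a.

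Levels are given in CPM, which are counts relative to the TMM-scaled size of the library. A gene passed when its adjusted p was below 0.05 in the quasi-likelihood test of edgeR, adjusted by the Benjamini-Hochberg method over 25108 genes, and it was a differentially expressed gene (DEG) when its absolute log2FC was also above 0.75. All 10 members were among the genes tested. Of the targeted genes, KLF5 in siKLF5b against siNC1 passed but was not a DEG. The same held for GRHL2 between siGRHL2a and each other group of its set. The labels do not say whether the libraries of a group came from separate cultures, and the methods speak of independent experiments only in general, so part of the spread that p measures may be technical. With 3 libraries against 3, the exact two-sided permutation test of a single gene cannot give a p below 0.1, and that p was reached wherever the groups did not overlap.

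**Figure D1:**
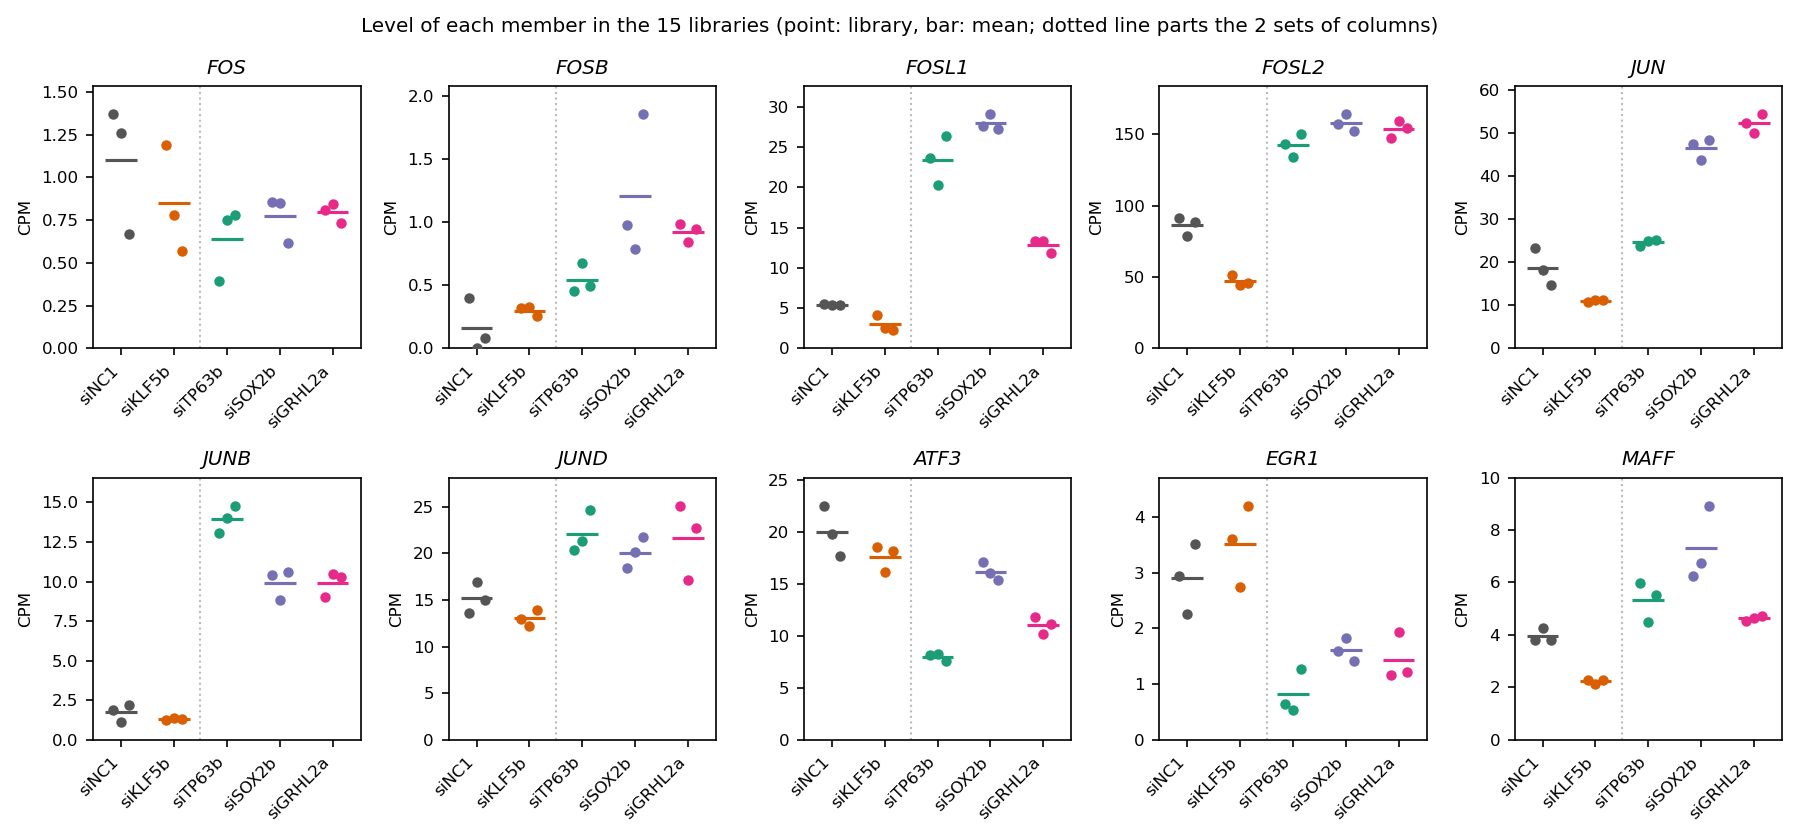
Level of each of the 10 members in CPM (y axis, linear, from 0) in the 15 libraries, by group (x axis). Points are libraries, bars are means of 3, and the dotted line parts the first set of columns (siNC1, siKLF5b) from the second (siTP63b, siSOX2b, siGRHL2a). FOSL2 lay between 79.0 and 91.5 CPM in siNC1 and between 44.1 and 51.5 CPM in siKLF5b, and JUN between 23.8 and 25.1 CPM in siTP63b, below every siSOX2b and siGRHL2a library.

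Knockdown of KLF5 was accompanied by lower RNA of FOSL2, FOSL1, JUN and MAFF. These were 4 DEGs among the 10 members, all lower, and 0 members passed higher. Over all genes tested, 1.37% were DEGs lower and 1.89% DEGs higher, and 23.2% passed in either direction. The members were chosen with earlier results known, so these shares describe them and do not test them as a group. The other 6 members, FOS, FOSB, JUNB, JUND, ATF3 and EGR1, did not pass. The median log2FC of the members was -0.39, and that of all genes tested was -0.01. The libraries are bulk RNA, so fewer cells with an RNA and less RNA per cell cannot be told apart.

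FOSL2 (ENSG00000075426.12, plus strand of hg38 chr2:28392448-28417317) encodes FRA2, a FOS family protein that pairs with JUN proteins. Its libraries were at 91.5, 79.0 and 88.2 CPM in siNC1 and at 51.5, 44.1 and 45.5 CPM in siKLF5b, so the groups did not overlap. The log2FC was -0.88 (standard error 0.064, adjusted p = 6.1e-12), a level 1.84 times lower. FOSL1 (ENSG00000175592.9, minus strand of chr11:65892049-65900573), which encodes FRA1, was at 5.50, 5.38 and 5.41 CPM in siNC1 and at 4.21, 2.55 and 2.23 CPM in siKLF5b. Its siNC1 libraries were close together and those of siKLF5b were spread, with replicate 1 the nearest to the control. FOSL1 fell by 0.84 on the log2 scale (standard error 0.164, adjusted p = 0.00025). Without siKLF5b replicate 2 its log2FC was -0.71, and without siKLF5b replicate 3 it was -0.70, both short of 0.75.

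JUN (ENSG00000177606.8, minus strand of chr1:58776845-58784048), the partner shared by most AP-1 dimers, was at 23.3, 18.1 and 14.7 CPM in siNC1. It was at 10.7, 11.3 and 11.3 CPM in siKLF5b, a narrow range that lay below every control library. The log2FC of -0.75 (-0.754, standard error 0.110, adjusted p = 3.7e-06) lay at the threshold of 0.75. JUN passed in 13 of 14 alternatives by adjusted p, but it was past both thresholds in 6 of the 14, and without siNC1 replicate 1 its log2FC was -0.56. MAFF (ENSG00000185022.12, plus strand of chr22:38200767-38216507), which pairs with larger bZIP proteins, was at 3.81, 4.28 and 3.82 CPM in siNC1. In siKLF5b it was at 2.29, 2.14 and 2.29 CPM, again with no overlap. Its log2FC was -0.82 (standard error 0.179, adjusted p = 0.00078).

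The remaining members showed no change that passed in siKLF5b. ATF3 (ENSG00000162772.17, plus strand of chr1:212565334-212620777), a stress-induced bZIP factor, was at 22.5, 19.8 and 17.7 CPM in siNC1 and at 18.5, 16.1 and 18.1 CPM in siKLF5b, with a log2FC of -0.19 and an interval of 2 standard errors either side from -0.38 to 0.01. JUND (ENSG00000130522.6, minus strand of chr19:18279694-18281622), a JUN protein present in unstimulated cells, was at 15.1 ± 1.68 and 13.0 ± 0.829 CPM (SD, n = 3), and its interval ran from -0.46 to 0.03. EGR1 (ENSG00000120738.8, plus strand of chr5:138465479-138469303) was at 2.90 ± 0.637 and 3.52 ± 0.726 CPM, and its interval from -0.24 to 0.75 held both no change and a rise. The groups overlapped for all 3 of these genes.

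FOS, FOSB and JUNB were at low levels in the first set, and their intervals were wide. FOS (ENSG00000170345.10, plus strand of chr14:75278826-75282230), the prototype immediate early gene, had 9 to 31 counts per library there and an interval from -1.08 to 0.39. FOSB (ENSG00000125740.14, plus strand of chr19:45467995-45475179) had 9, 0 and 2 counts in siNC1 and 7, 8 and 4 in siKLF5b. The count of 0, in siNC1 replicate 2, allows up to 3 counts, or 0.164 CPM, by counting error alone. The FOSB log2FC of 0.84 did not pass (standard error 0.674, adjusted p = 0.42), while without siNC1 replicate 1 it was 2.58 (adjusted p = 0.0452). JUNB (ENSG00000171223.6, plus strand of chr19:12791486-12793315), a JUN protein with weaker transactivation than JUN, was at 1.91, 1.15 and 2.18 CPM in siNC1 and at 1.24, 1.40 and 1.34 CPM in siKLF5b. Its log2FC of -0.43 (adjusted p = 0.17) passed without siNC1 replicate 2, at -0.63 (adjusted p = 0.0338).

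Other RNA moved with these members in siKLF5b. The 14 squamous and epithelial markers summed to 7923 to 9028 CPM in siKLF5b and to 12262 to 13901 CPM in siNC1, and 9 of the 14 passed lower and 2 higher. The 19 markers of other cell types summed to 43.1 to 48.8 CPM in siKLF5b and 58.3 to 64.3 CPM in siNC1, of which CD68, a lysosomal protein used as a macrophage marker, made up 22.6 ± 1.49 and 34.4 ± 1.55 CPM. Of these 19, DCN and SFTPA1 had 0 counts in siNC1, CD3E at most 0.0443 CPM and PECAM1 at most 0.329 CPM. Others were above these levels in siNC1, with VWF at 14.5 ± 0.143, ACTA2 at 5.30 ± 0.493, COL1A1 at 2.36 ± 0.758 and PDGFRB at 2.24 ± 0.314 CPM. Only 9 of the 19 were tested, of which 2 passed lower and 0 higher. PDGFRB, a receptor of pericytes and fibroblasts, was the 1 DEG, at 1.23 ± 0.0852 CPM in siKLF5b (log2FC -0.85, adjusted p = 0.0079). Over all genes tested, 12.9% passed lower and 10.3% higher, or 23.2% in either direction, near the 22.2% of these 9 markers. Their part in the result was not tested.

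**Figure D2:**
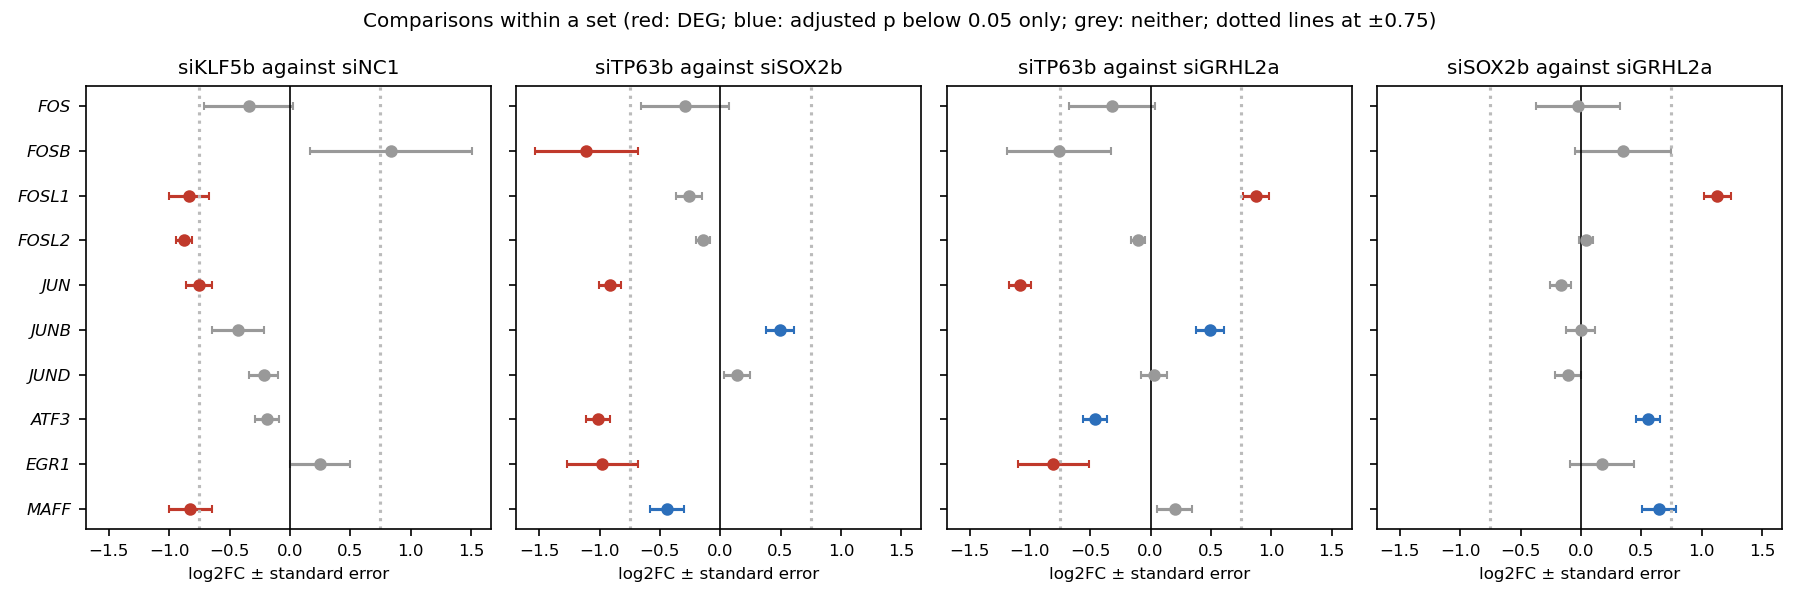
log2FC of the 10 members (x axis, linear) in the 4 comparisons within a set, one panel each. Points are the fitted log2FC, bars are 1 standard error, red marks DEGs, blue an adjusted p below 0.05 alone, and dotted lines stand at a log2FC of 0.75 in either direction. The 4 red points of siKLF5b all lie at -0.75 or below, and in siSOX2b against siGRHL2a the 1 red point is FOSL1, at 1.13.

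Several members counted reads from a region that also holds another gene. FOSB lies wholly within ERCC1, JUNB within HOOK2, and MAFF overlaps PLA2G6, each on the opposite strand. Whether the counting used strand is not given in the sources used here, and without strand the reads of FOSB, JUNB and MAFF cannot be told apart from those of their neighbours. In siKLF5b against siNC1 the neighbours did not pass, with a log2FC of -0.15 for ERCC1, -0.15 for HOOK2 and 0.10 for PLA2G6. ERCC1 (28.5 CPM in siNC1) and HOOK2 (76.6 CPM) had far more counts than FOSB and JUNB, and PLA2G6 (3.41 CPM) had about as many as MAFF. FOSL2 overlaps the antisense RNA FOSL2-AS1, whose counts were 6.68% of its own.

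Within the second set, siTP63b had the lowest mean level of JUN, ATF3, EGR1 and FOSB and the highest of JUNB. Against siSOX2b, 6 members passed, 5 lower and JUNB higher, and 4 of them were DEGs, all lower. Over all genes tested, 2.82% were DEGs lower and 3.88% DEGs higher, and 31.8% passed in either direction. Against siGRHL2a, 5 members passed, 3 lower and 2 higher, with JUN and EGR1 as DEGs lower and FOSL1 as a DEG higher. The corresponding shares of all genes were 3.21% lower, 2.18% higher and 27.1% in either direction. Both comparisons use the same siTP63b libraries and are not independent, and neither includes control cells.

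JUN was at 23.8, 25.0 and 25.1 CPM in siTP63b, at 47.5, 43.7 and 48.3 CPM in siSOX2b and at 52.3, 50.0 and 54.4 CPM in siGRHL2a. The siTP63b libraries stood well below both other groups, which did not overlap each other but lay close. JUN was 1.89 times lower in siTP63b than in siSOX2b (log2FC -0.92, standard error 0.091, adjusted p = 1.7e-09). Against siGRHL2a it was 2.12 times lower (log2FC -1.08, standard error 0.090, adjusted p = 5.3e-11), and it was past both thresholds there in all 15 alternatives. Between siSOX2b and siGRHL2a, JUN had a log2FC of -0.17 with an interval from -0.34 to 0.01 (adjusted p = 0.17).

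JUNB ran the other way from JUN. It was at 13.1, 14.0 and 14.8 CPM in siTP63b, above 10.4, 8.82 and 10.6 CPM in siSOX2b and 9.02, 10.5 and 10.3 CPM in siGRHL2a. JUNB rose by a log2FC of 0.49 against siSOX2b (standard error 0.118, adjusted p = 0.0015) and of 0.49 against siGRHL2a (adjusted p = 0.0017), in both cases below the DEG threshold. HOOK2, in which JUNB lies, had a log2FC of -0.03 and -0.04 in these comparisons. JUND was level across the 3 groups, at 22.1 ± 2.25, 20.1 ± 1.64 and 21.6 ± 4.14 CPM (SD, n = 3), with overlapping libraries throughout. Its interval was from -0.08 to 0.36 for siTP63b against siSOX2b and from -0.18 to 0.24 against siGRHL2a.

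Among the FOS family, FOSL1 was lower in siGRHL2a than in the other groups of the set. It was at 23.6, 20.3 and 26.4 CPM in siTP63b and at 27.6, 29.1 and 27.3 CPM in siSOX2b, but at 13.3, 13.3 and 11.8 CPM in siGRHL2a. The siGRHL2a libraries lay below all the others of the set. FOSL1 was 1.83 times higher in siTP63b than in siGRHL2a (log2FC 0.87, standard error 0.110, adjusted p = 2.4e-07) and 2.19 times higher in siSOX2b (log2FC 1.13, standard error 0.110, adjusted p = 2.8e-09). Between siTP63b and siSOX2b its log2FC was -0.26 (adjusted p = 0.062), although the libraries did not overlap. FOSL2 was within a narrow range, 134 to 150 CPM in siTP63b, 152 to 164 CPM in siSOX2b and 147 to 159 CPM in siGRHL2a. Its log2FC was -0.15 in siTP63b against siSOX2b (adjusted p = 0.052), -0.10 against siGRHL2a (adjusted p = 0.19) and 0.04 between siSOX2b and siGRHL2a (adjusted p = 0.65). Without siTP63b replicate 3 both genes passed in siTP63b against siSOX2b (FOSL1 at -0.35, adjusted p = 0.0187, and FOSL2 at -0.19, adjusted p = 0.0223), and FOSL2 also without siSOX2b replicate 3 (adjusted p = 0.0355).

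FOSB was at 0.457, 0.680 and 0.499 CPM in siTP63b and at 0.978, 0.788 and 1.86 CPM in siSOX2b, or 14 to 20 against 26 to 42 counts. The siSOX2b value was raised by 1 library, replicate 3. The log2FC was -1.11 (standard error 0.428, adjusted p = 0.047), and it was past both thresholds in 6 of 14 alternatives. Without siSOX2b replicate 3 it was -0.70 (adjusted p = 0.286), and it also did not pass without siTP63b replicate 1 (adjusted p = 0.124), siTP63b replicate 3 (adjusted p = 0.1) or siSOX2b replicate 1 (adjusted p = 0.0517), with DESeq2 (adjusted p = 0.0684) or with halved counts (adjusted p = 0.0606). ERCC1 fell in the same comparison, by 0.33 on the log2 scale (adjusted p = 0.00081), and its part in the FOSB value was not tested. FOSB did not pass against siGRHL2a (0.844 to 0.986 CPM). FOS was at 0.392 to 0.783 CPM in siTP63b, 0.619 to 0.856 CPM in siSOX2b and 0.734 to 0.844 CPM in siGRHL2a, with overlapping groups and no comparison that passed.

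ATF3 separated all 3 groups. Its libraries were at 8.16, 8.29 and 7.55 CPM in siTP63b, at 11.8, 10.2 and 11.1 CPM in siGRHL2a and at 17.1, 16 and 15.4 CPM in siSOX2b. ATF3 was 2.02 times lower in siTP63b than in siSOX2b (log2FC -1.01, standard error 0.101, adjusted p = 1.8e-09). It was 1.38 times lower than in siGRHL2a (log2FC -0.46, adjusted p = 0.00088) and 1.47 times higher in siSOX2b than in siGRHL2a (log2FC 0.55, adjusted p = 6.3e-05), and these last differences were not DEGs. ATF3 is also a known target of the integrated stress response, whose genes were also followed.

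EGR1 was at 0.653, 0.544 and 1.28 CPM in siTP63b, at 1.59, 1.82 and 1.42 CPM in siSOX2b and at 1.16, 1.93 and 1.22 CPM in siGRHL2a. Replicate 3 of siTP63b stood apart from the other two libraries and overlapped siGRHL2a. The log2FC was -0.98 against siSOX2b (standard error 0.293, adjusted p = 0.01) and -0.81 against siGRHL2a (standard error 0.293, adjusted p = 0.039). Against siSOX2b it did not pass without siTP63b replicate 1 (adjusted p = 0.0542) or replicate 2 (adjusted p = 0.0702). Against siGRHL2a EGR1 was past both thresholds in 8 of 15 alternatives, and it did not pass with DESeq2 (adjusted p = 0.0649), with halved counts (adjusted p = 0.0726), with the 6 libraries alone (adjusted p = 0.108) or without siTP63b replicate 1 (adjusted p = 0.155), siTP63b replicate 2 (adjusted p = 0.2) or siGRHL2a replicate 2 (adjusted p = 0.244).

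MAFF was at 5.97, 4.49 and 5.52 CPM in siTP63b, at 6.24, 6.76 and 8.93 CPM in siSOX2b and at 4.53, 4.64 and 4.74 CPM in siGRHL2a. The siSOX2b libraries were the highest, with replicate 3 above the other two. MAFF was 1.56 times higher in siSOX2b than in siGRHL2a (log2FC 0.64, standard error 0.141, adjusted p = 0.00089). It was lower in siTP63b than in siSOX2b by 0.44 on the log2 scale (adjusted p = 0.015), a call that was lost without siTP63b replicate 2 (adjusted p = 0.0995) or siSOX2b replicate 3 (adjusted p = 0.138). PLA2G6, which overlaps MAFF, had a log2FC of -0.62 in that comparison (adjusted p = 0.0038), and its part was not tested. In siSOX2b against siGRHL2a, where PLA2G6 had a log2FC of -0.06 (adjusted p = 0.84), 3 members passed, FOSL1, ATF3 and MAFF, all higher, and FOSL1 was the 1 DEG. Over all genes, 1.05% were DEGs higher and 2.27% DEGs lower in that comparison, and 24.5% passed in either direction.

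Markers also differed within the second set. The squamous and epithelial markers summed to 8424 to 9621 CPM in siTP63b, 10896 to 11998 CPM in siSOX2b and 13627 to 14023 CPM in siGRHL2a, and those of other cell types to 44.1 to 50.2, 50.1 to 53.8 and 49.5 to 60.8 CPM. KRT5, a basal keratin, made up most of the first sum, at 5748 ± 476, 7474 ± 430 and 9192 ± 173 CPM. Of the 14 squamous and epithelial markers, 7 passed lower and 3 higher in siTP63b against siSOX2b, 9 lower and 3 higher against siGRHL2a, and 10 lower and 1 higher in siSOX2b against siGRHL2a. TP63 and SOX2 are among the 14 and are themselves siRNA targets, so some of these calls were set by the design. TP63 had a log2FC of -0.93 in siTP63b against siSOX2b and -1.19 against siGRHL2a. SOX2 had a log2FC of 1.73 in siTP63b against siSOX2b and -1.18 in siSOX2b against siGRHL2a. Over all genes tested, 15.4%, 13.4% and 12.7% passed lower and 16.4%, 13.6% and 11.8% higher in these comparisons. KRT8 and KRT18, keratins of simple epithelia, ran against the sum, at 761 ± 33.1 and 408 ± 24.6 CPM in siTP63b and at 380 ± 25.5 and 188 ± 8.49 CPM in siSOX2b (adjusted p = 7.7e-16 and 9.4e-17). Among the markers of other cell types PDGFRB was lower in siTP63b, with a log2FC of -1.20 against siSOX2b and -1.04 against siGRHL2a. In siSOX2b against siGRHL2a VWF had a log2FC of -0.86 (3.55 ± 0.698 and 6.42 ± 1.02 CPM) and PTPRC, the leukocyte marker CD45, one of 1.5 (1.01 ± 0.265 and 0.356 ± 0.258 CPM). COL1A1 was at 4.35 to 5.22 CPM in group means. CD3E, DCN, SFTPC and SFTPA1 were at 0 in all 3 groups. The part of these differences in the values of the members was not tested.

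Set against siNC1, the 3 knockdowns of the second set shared large differences in the same members, and here set and knockdown cannot be told apart. JUNB had a log2FC of 2.97 in siTP63b, 2.47 in siSOX2b and 2.48 in siGRHL2a, and FOSL1 had 2.11, 2.37 and 1.24. EGR1 had -1.83, -0.85 and -1.02. All 3 comparisons share the siNC1 libraries. In siTP63b 3 members were DEGs higher and 2 lower, in siSOX2b 6 and 1, and in siGRHL2a 5 and 2, in comparisons where 11.4%, 11.6% and 11.7% of all genes were DEGs higher and 9.24%, 10.1% and 7.99% were DEGs lower. When each knockdown was set against the other 2 of the second set, siTP63b had 2 members as DEGs lower, siSOX2b 1 higher and siGRHL2a 1 lower. Over all genes, 2.73% were DEGs lower and 2.65% DEGs higher in siTP63b, 2.37% and 1.23% in siSOX2b, and 0.94% and 2.03% in siGRHL2a. The sign of JUN then turned in siTP63b, from 0.40 against siNC1 to -1.0, and that of ATF3 turned in siSOX2b, from -0.30 to 0.78.

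Levels of different members were compared per kilobase of exon and per kilobase of span, in CPM per kb. Reads were counted over the whole span of each gene, so reads in introns enter both values. They can raise the value per kb of exon where exons are a small part of the span, as in ATF3 (7.2%) and FOSL2 (28.8%). In siNC1, FOSL2 was at 12, JUND at 7.85, JUN at 5.16, ATF3 at 4.99 and FOSL1 at 2.88 CPM per kb of exon. JUNB (0.954), EGR1 (0.924), MAFF (0.707), FOS (0.346) and FOSB (0.029) were below 1 CPM per kb of exon. The places of JUNB, MAFF and FOSB carry the limit that they overlap HOOK2, PLA2G6 and ERCC1 and that the use of strand is not known. Per kilobase of span, introns included, JUND came first with 7.85, followed by FOSL2 with 3.47 and JUN with 2.60, and ATF3, with exons over 7.2% of its span, came seventh with 0.36. FOSL2 was the most abundant FOS family member in every group on both scales, while FOS itself stayed at or below 0.346 CPM per kb of exon in all 5 groups.

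Genes whose level ran most like that of a member were sought over the 15 libraries after the mean of each set was subtracted, among 11862 protein-coding genes. The libraries share groups and sets, so the correlations are descriptions only. JUN was most like PDGFA (r = 0.969), APP (0.959) and OLFML2A (0.958). FOSL2 was most like CACUL1 (0.970), GPI (0.962) and ZMIZ1 (0.958), and FOSL1 most like BDH1 (0.935), MINDY2 (0.933) and FAM234B (0.933). MAFF was nearest to SLC37A4 (0.959), ATP5F1B (0.959) and EIF2S1 (0.935), and ATF3 to HAS3 (0.958), HOXB7 (0.953) and PNISR (0.952). For EGR1 the nearest were PWWP2B (0.910), PAF1 (0.893) and STK11IP (0.891), and for FOSB SUOX (0.795), CHAF1A (0.791) and ENSA (0.783).

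Genes around the members were followed in 6 lists, also chosen with earlier results of these data known. Their counts beside the shares of all genes are therefore descriptions and not a test. In siKLF5b against siNC1, other immediate early genes were mostly lower, as 21 of 35 tested passed lower and 1 higher, with a median log2FC of -0.29. Over all genes tested in this comparison, 12.9% passed lower and 10.3% higher, and the median log2FC was -0.01. Only a pair of them were DEGs. GADD45B, a stress sensor, fell from 4.90 ± 0.764 to 2.75 ± 0.721 CPM (log2FC -0.84, adjusted p = 0.00061), and CCN2, a matricellular protein, rose from 1.74 ± 0.496 to 3.16 ± 0.204 CPM (log2FC 0.85, adjusted p = 0.0027). Of 17 feedback regulators, 5 passed lower and 1 higher, and the 3 DEGs were phosphatases of MAP kinases. DUSP4 fell from 16.1 to 7.26 CPM (log2FC -1.14), DUSP5 from 8.23 to 3.68 CPM (log2FC -1.17) and DUSP6 from 29.8 to 16.6 CPM (log2FC -0.84).

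AP-1 target genes, which include cytokines, proteases and cornified envelope genes, had 11 of 25 tested that passed lower and 1 higher in siKLF5b, beside the same 12.9% and 10.3% of all genes. CCND1, the G1 cyclin D1, fell from 1167 ± 1.15 to 413 ± 9.40 CPM (log2FC -1.50, standard error 0.044, adjusted p = 1.7e-21). IL1B fell from 7.85 to 4.25 CPM (log2FC -0.87) and TGM1, the transglutaminase of keratinocytes, from 3.76 to 1.97 CPM (log2FC -0.93). Of 33 upstream kinases and transcription factors, 11 passed lower and 2 higher, and 0 were DEGs. Of 27 tested bZIP partners and relatives, 9 passed lower and 3 higher, also with 0 DEGs. Among 16 tested integrated stress response genes, 5 passed lower and 3 higher, and CHAC1 was the 1 DEG (log2FC -1.12, adjusted p = 0.029).

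In siTP63b against siSOX2b, 13 of the 25 AP-1 targets passed lower and 2 higher, with 6 DEGs lower and 1 higher. Of all genes 15.4% passed lower and 16.4% higher in this comparison, shares against which the counts of the other lists are also to be read. IL1A, an epithelial cytokine, had 66.9 ± 1.04 CPM in siSOX2b but 22.1 ± 2.45 CPM in siTP63b (log2FC -1.59, adjusted p = 5.2e-17). Of the other immediate early genes, 15 passed lower and 4 higher, led by SGK1 (log2FC -1.21) and BTG2 (log2FC -0.96). Among the bZIP relatives, 12 passed lower and 5 higher: JDP2, a repressor that pairs with JUN, had 24.4 ± 1.54 CPM in siTP63b, against 9.39 ± 0.704 CPM in siSOX2b (log2FC 1.37), and CREB5 had a log2FC of -1.07. DUSP6 (log2FC -1.22) and NAB2, a corepressor of EGR1 (log2FC -0.77), were 2 of 4 feedback regulators that were DEGs lower. NRAS (log2FC 1.02) was the only DEG of 33 upstream genes.

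Stress response genes moved in both directions in siTP63b. Against siSOX2b, where ATF3 was lower, SLC7A11, a cystine transporter, had a log2FC of 1.04 and TRIB3, a pseudokinase induced by ATF4, one of 0.86, while 6 of 16 genes passed lower and 3 higher. Against siGRHL2a, 9 of the 16 passed higher and 1 lower, with TRIB3 at 0.98 and CHAC1 at 0.99, where 13.6% of all genes passed higher and 13.4% lower. In that comparison the AP-1 targets were split, 11 of 25 lower and 4 higher, with IL1A at -1.24 and LAMB3, a laminin chain, at -0.98. ERRFI1, an inhibitor of the EGF receptor, was higher by a log2FC of 1.34, SGK1 was at -0.99, and of the other immediate early genes 9 passed higher and 10 lower. Among the bZIP relatives MAF had a log2FC of -3.59 (adjusted p = 4.3e-07), and it was rare, with 0.115 ± 0.108 CPM in siTP63b against 1.42 ± 0.497 CPM in siGRHL2a. The bZIP list had 11 genes lower and 5 higher.

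In siSOX2b against siGRHL2a, 8 of 17 feedback regulators passed higher and 0 lower, among them DUSP10 (log2FC 0.96) and DUSP1 (log2FC 0.86). Of all genes 11.8% passed higher and 12.7% lower there. AP-1 targets had 9 higher and 4 lower, with AREG, a ligand of the EGF receptor, at 14.8 ± 0.476 CPM in siSOX2b and 6.44 ± 0.561 CPM in siGRHL2a (log2FC 1.20, adjusted p = 1.5e-09) and TGFA at a log2FC of 0.90. Other immediate early genes had 12 higher and 4 lower, with ERRFI1 at 1.06. Of the stress response genes 10 passed higher and 1 lower, with CHAC1 at 1.03 and DNAJB9 at 0.86. The bZIP relatives went the other way, 9 lower and 3 higher, with JDP2 at -0.99, and the upstream genes had 8 lower and 5 higher, with NRAS at -1.0. In siTP63b against siGRHL2a, by comparison, 9 upstream genes passed higher and 1 lower with 0 DEGs, and 5 feedback regulators passed higher and 2 lower, with DUSP10 at 1.45.

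**Figure D3:**
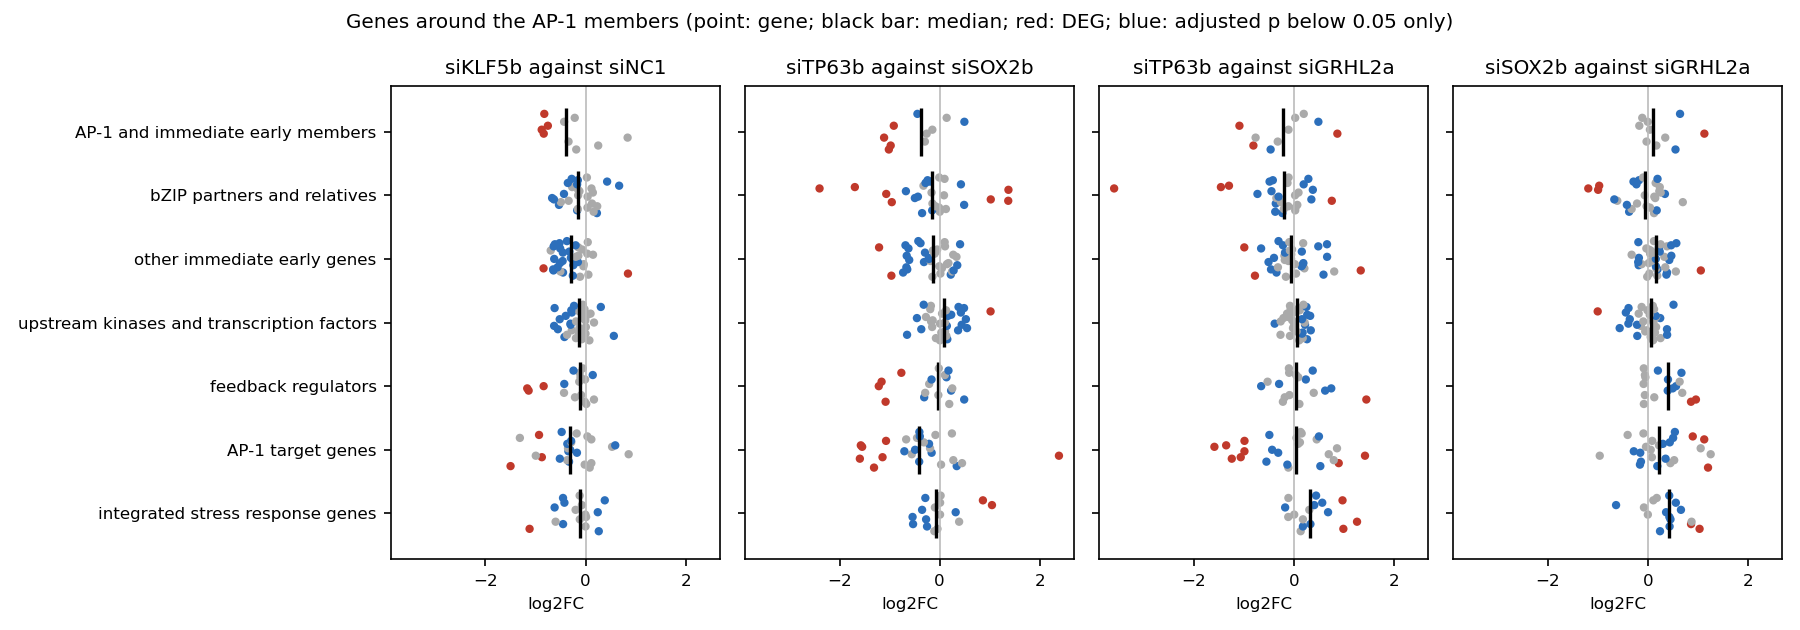
log2FC (x axis, linear) of the genes of each list (y axis) in the 4 comparisons within a set, one panel each. Points are genes, black bars are medians, red marks DEGs and blue an adjusted p below 0.05 alone. The medians of the 7 lists lie between -0.39 and -0.12 in siKLF5b against siNC1, and that of the feedback regulators is at 0.40 in siSOX2b against siGRHL2a.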

How the data were processed

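RNA-seq was analysed for 15 HCC95 libraries in 5 groups of 3, grouped by their sample titles. The authors aligned reads to hg38 with HISAT2 2.2.1 and counted them with featureCounts 2.0.1 and Gencode 40, and they deposited raw counts per gene without normalization. The labels give the molecule as genomic DNA, while the protocol describes poly(A) RNA. The counted length of all 61544 genes was the whole span, and 0 count columns were left without a match. Whether strand was used is not given in the sources used here. Positions are hg38 and were the same in Gencode 44 for all 10 members.

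Counts were fitted in R 4.3.3 with edgeR 4.0.16 (TMM, filterByExpr by group, one quasi-likelihood fit of 15 libraries, Benjamini-Hochberg over 25108 genes). The thresholds were those of the study's methods. The steps were tested on simulated counts. The members and lists were chosen with earlier results of these data known. All members were named, and up to 4 DEGs of each other list in siKLF5b and up to 2 in the other comparisons, by smallest adjusted p, and some genes chosen by this rule are left out. Alternatives were RLE and upper-quartile scaling, no or a stricter filter, the replicate block, only the 6 libraries compared, halved counts in the second set, glmTreat, DESeq2 1.42.0, the other knockdowns of the set as control, and each library left out in turn.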

Additional observations from a re-analysis of the deposited data

How the results depend on the processing

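Of the results for single members, 966 kept their direction and their call, 51 lost the call, 9 gained it and 29 turned in sign. The call was an adjusted p below 0.05, except under glmTreat. There, passing glmTreat was set against being a DEG in the main fit. A member that had passed without being a DEG thus counted as kept when it did not pass glmTreat. The log2FC threshold of 0.75 entered these numbers only under glmTreat. A result without an adjusted p counted as kept if its direction held. The number of members past the thresholds moved by over 1.5 times under glmTreat, which asks for more than 0.75: from 4 to 0 in siKLF5b against siNC1, from 4 to 0 in siTP63b against siSOX2b, from 3 to 1 in siTP63b against siGRHL2a, from 1 to 0 in siSOX2b against siGRHL2a, and from 7 to 4 in siSOX2b and in siGRHL2a against siNC1. By construction, glmTreat tests each log2FC against 0.75 and not against 0. Of the 25108 genes tested, 61 passed glmTreat in siKLF5b against siNC1, where 475 were DEGs higher and 343 lower without it. In siTP63b against siSOX2b, siTP63b against siGRHL2a and siSOX2b against siGRHL2a, 312, 285 and 59 genes passed it. In siSOX2b and siGRHL2a against siNC1, 2530 and 2154 did. With 1 library left out, the number ranged from 2 to 4 in siTP63b against siSOX2b, with 2 without siTP63b replicate 1, and from 1 to 2 in siSOX2b against siGRHL2a, with 2 without siSOX2b replicate 1, where MAFF (log2FC 0.76) passed as well. Of all genes, 927 were DEGs higher and 696 lower in the first of these fits (973 and 709 with all libraries). In the second, 254 were higher and 560 lower (264 and 569 with all libraries). In siKLF5b against siNC1, JUN was short of 0.75 in 7 alternatives other than glmTreat. With the other knockdowns of the set as control in place of siNC1, the number fell from 5 to 2 in siTP63b, from 7 to 1 in siSOX2b and from 7 to 1 in siGRHL2a, and those with an adjusted p below 0.05 from 9 to 5, 9 to 4 and 8 to 3. Of all genes, 2.73%, 2.37% and 0.94% were then DEGs lower and 2.65%, 1.23% and 2.03% DEGs higher, fewer than against siNC1. Genes with an adjusted p below 0.05 numbered 13589, 13920 and 13553 of 25108 against siNC1 and 7795, 7244 and 5984 against the other knockdowns. The sign then turned for FOSB (-0.935), FOSL2 (-0.125), JUN (-1) and MAFF (-0.122) in siTP63b. It turned for FOS (0.135), JUNB (-0.248), JUND (-0.125), ATF3 (0.784) and EGR1 (0.575) in siSOX2b, and for FOS (0.171), FOSL1 (-1.002), JUNB (-0.246), EGR1 (0.316) and MAFF (-0.423) in siGRHL2a. The cause was not tested.

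Other turns of sign were in differences that did not pass. JUNB in siSOX2b against siGRHL2a was at 0.0133 with RLE size factors, 0.005 with at least 10 counts in every library, 0.0082 with only the 6 libraries, 0.0012 with halved counts and 0.0141 with DESeq2, and ranged from -0.0602 to 0.09 with 1 library left out. On leaving out 1 library, FOS ranged from -0.0843 to 0.11, FOSB from -0.0553 to 0.594 and JUND from -0.254 to 0.019 in the same comparison, and JUND from -0.114 to 0.155 in siTP63b against siGRHL2a.

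Deviations of same-numbered libraries from their group means correlated between -0.05 and 0.05 over all genes tested, so no strong shared effect of the replicate number was seen. Such a correlation cannot show whether same-numbered libraries were prepared together. With the replicate number as a block, JUNB in siSOX2b against siGRHL2a was at 7e-04, 3 members were past the thresholds in siKLF5b against siNC1 (4 without it) and 3 in siTP63b against siSOX2b, where FOSB had an adjusted p of 0.0612. Of all genes, 468 were DEGs higher and 337 lower with the block in siKLF5b against siNC1. In siTP63b against siSOX2b 958 were higher and 709 lower.

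Depth limits FOS, FOSB, EGR1 and JUNB, which had at most 84 counts in any library of siNC1, and FOS and FOSB at most 42 in any library of the study. Counts were also low for MAFF, with 78 to 91 in siNC1 and 36 to 52 in siKLF5b. FOSL1 had 98 to 129 counts in siNC1 and 35 to 92 in siKLF5b.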
